A study of Mus musculus with 12 samples.

Results

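The genes described here are 10 chemokine genes of the gut stroma, Ccl2, Ccl7, Ccl8, Ccl11, Ccl19, Ccl21a, Cxcl1, Cxcl12, Cxcl13 and Cxcl16. They were chosen by name, with earlier results of these data known, and are 10 of the 32052 genes in the deposited count table. All 10 were among the 16757 genes with enough counts to be tested. RNA was sequenced from mouse gut stromal cells sorted as negative for EPCAM, an epithelial surface protein, and for CD45, a surface protein of leukocytes. The sorted cells were then split by a GFP reporter transgene of Rspo3, the gene of the secreted Wnt amplifier R-spondin 3. The 4 groups of 3 libraries were colon GFP-positive, colon GFP-negative, small intestine GFP-positive and small intestine GFP-negative cells. Mice of every group had the C57Bl6 background, were aged 8 to 12 weeks and carried the Rspo3-GFP transgene, and no treatment is stated. The labels do not say whether replicates came from separate animals, so p-values measure the spread between these libraries, which may be technical. Samples sorted on CD31 were not analysed here.

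Chemokines are small secreted proteins that bind G protein-coupled receptors on leukocytes and steer their movement along gradients held on the surface of stromal cells. Homeostatic chemokines organise tissues at rest. CCL19 and CCL21 bind CCR7 and guide dendritic cells and T cells, CXCL13 binds CXCR5 and gathers B cells, and CXCL12 binds CXCR4 and retains many cell types. Inflammatory chemokines rise with injury or infection. CCL2, CCL7 and CCL8 attract monocytes, CCL11 attracts eosinophils, CXCL1 attracts neutrophils, and CXCL16 is made as a membrane-bound protein that binds CXCR6. In the gut, lymphatic endothelium is a known source of CCL21, and fibroblastic stroma is a known source of CXCL12 and, in lymphoid follicles, of CXCL13.

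The sequences of Ccl21a and of a near-identical gene are given first because reads of one can be assigned to the other. The transcripts Ccl21a-201 and Gm21541-201 of the GENCODE M21 annotation are each 870 bases long and differ at 6 bases. Gm21541 is named Ccl21d in the RefSeq gene table. Counted from 1 at the 5′ end, with the Ccl21a base first, the differences are G24A, T159A, C269T, C640T, T812C and G856A. The coding part runs from base 76 to base 477 and holds 2 of them, T159A in exon 2 and C269T in exon 3. Both lie in the stretch from base 139 to base 289, in which the 2 differing bases are in capitals.
Ccl21a: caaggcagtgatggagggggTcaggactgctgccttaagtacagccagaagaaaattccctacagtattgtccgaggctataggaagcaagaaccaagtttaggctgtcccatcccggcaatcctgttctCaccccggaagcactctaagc
Gm21541: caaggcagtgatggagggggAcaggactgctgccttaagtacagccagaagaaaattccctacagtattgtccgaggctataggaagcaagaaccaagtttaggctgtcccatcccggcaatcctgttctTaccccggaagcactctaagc
A read has to cover a differing base to tell the genes apart, so the split between Ccl21a and Gm21541 is uncertain while their sum is less so. Further near-identical genes were absent from the count table. They are Gm13304 (5 of 837 bases differ from Ccl21a-201), Ccl21b (2 of 402) and Gm10591 (2 of 402). How reads from them were assigned is not known, so the sum may hold some of them.

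Some of the genes lie in clusters on GRCm38. Ccl2 (chromosome 11, 82035571 to 82037453), Ccl7 (82045712 to 82047525), Ccl11 (82057823 to 82062955) and Ccl8 (82115185 to 82116799) follow each other on the plus strand. Cxcl16 is on the minus strand of the same chromosome at 70453983 to 70459984. Ccl19 (42754525 to 42756577) and Ccl21a (42772860 to 42773993) neighbour each other on the minus strand of chromosome 4. Cxcl1 (90891241 to 90893115) and Cxcl13 (95956951 to 95961068) are on the plus strand of chromosome 5, and Cxcl12 is on the plus strand of chromosome 6 at 117168535 to 117181367. Promoter sequence from RefSeq (GRCm38.p6, 250 bases before to 50 bases after the start site, 300 bases in all) was matched for 6 genes, Ccl8, Ccl19, Ccl21a, Cxcl1, Cxcl12 and Cxcl13. Cxcl1 is shown because it was the only one of these 6 whose window held the NF-kappaB consensus, searched on both strands. The consensus matched 2 overlapping times in Cxcl1, starting 71 bases before the start site, and in 8.5% of all 32851 promoter windows. A match is a string of letters and was not tested as a binding site. The match is in capitals in chr5:90891149-90891208 of the plus strand.
Cxcl1 promoter: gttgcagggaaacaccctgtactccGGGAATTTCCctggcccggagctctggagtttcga

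The libraries held 6489835 to 12286054 counts. Rspo3 separated the sorts, at 117 to 161 CPM (counts scaled to library size) in colon GFP-positive and 2.28 to 6.51 CPM in colon GFP-negative libraries, and at 192 to 196 CPM in small intestine GFP-positive and 4.50 to 13.7 CPM in small intestine GFP-negative libraries. The GFP-positive cells of both tissues carried markers of fibroblasts and of lymphatic endothelium. The summed level of 9 lymphatic endothelial markers was 12280 to 13960 CPM in colon GFP-positive and 194 to 288 CPM in colon GFP-negative libraries, and 3721 to 12570 CPM in small intestine GFP-positive and 202 to 559 CPM in small intestine GFP-negative libraries. None of the 9 was at 0 in any group. One library stood apart. Small intestine GFP-negative replicate 3 held 772 CPM of 6 common leukocyte markers, Ptprc (CD45) among them, against at most 23.6 CPM in any other library, although the cells were sorted as CD45-negative. Its summed B and plasma cell markers reached 9007 CPM, against at most 319 CPM elsewhere. Colon GFP-positive replicate 3 held the most epithelial marker RNA among the GFP-positive libraries, at 1491 CPM. Colon GFP-negative replicates 1 and 3 held more, at 2035 and 1905 CPM, and were kept. Results are also given without 2 libraries, small intestine GFP-negative replicate 3 and colon GFP-positive replicate 3, a choice made after seeing the data. In sorted bulk samples, fewer cells of a type and less RNA per cell cannot be told apart.

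Ccl21a was the most abundant of the 10 transcripts in GFP-positive cells of both tissues, and GFP-negative cells had other leading chemokines. Levels between genes are compared as TPM (transcript abundance scaled for length and depth), rescaled here to the sum over protein-coding genes. In colon GFP-positive libraries the 10 genes summed to 18780 ± 2365 TPM (SD, n = 3), of which Ccl21a made up 86.1% to 91.3%. In colon GFP-negative libraries the sum was 2004 ± 126 TPM. In small intestine GFP-positive libraries the sum was 5581 ± 1679 TPM, with 41.6% to 83.3% from Ccl21a, against 1992 ± 274 TPM in small intestine GFP-negative libraries. Without Ccl21a the sums came to 2073 ± 431 TPM in colon GFP-positive, 1922 ± 177 TPM in colon GFP-negative, 1788 ± 536 TPM in small intestine GFP-positive and 1937 ± 328 TPM in small intestine GFP-negative libraries, whose spreads overlapped.

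**Figure D1:**
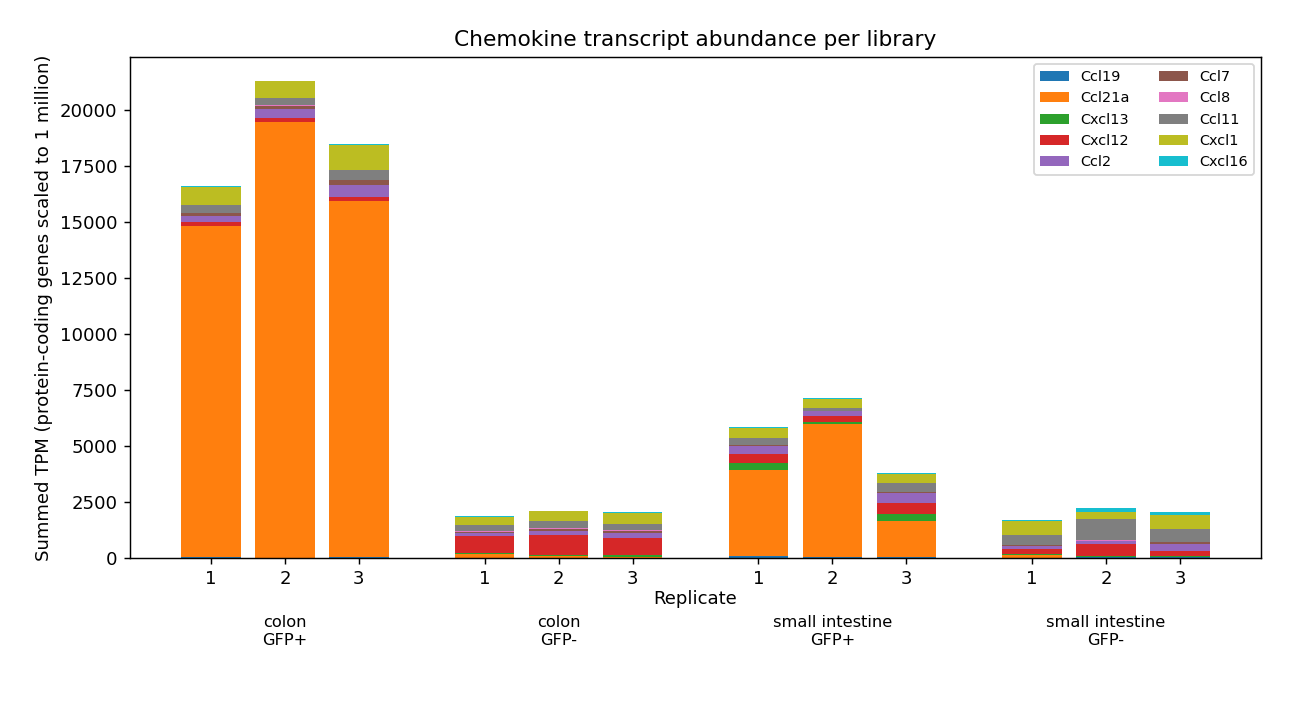
Stacked bars give the abundance of the 10 chemokine transcripts in each of the 12 libraries, in TPM rescaled to protein-coding genes, by group and replicate. The orange Ccl21a segment fills most of the bars of colon GFP-positive cells, which reach 16580 to 21280 TPM, while both GFP-negative groups stay between 1697 and 2239 TPM.

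The order of levels differed between the groups. In colon GFP-positive cells Ccl21a (16710 ± 2428 TPM) was followed by Cxcl1 (897 ± 210), Ccl2 (416 ± 123), Ccl11 (371 ± 53.2), Cxcl12 (183 ± 12.2), Ccl7 (153 ± 53.2), Cxcl16 (22.4 ± 5.45), Ccl19 (12.6 ± 7.78), Ccl8 (10.8 ± 3.93) and Cxcl13 (7.37 ± 1.30). Ranges overlapped between Ccl2 and Ccl11, between Cxcl12 and Ccl7 and between neighbours from Cxcl16 down, and the other neighbours did not overlap. In colon GFP-negative cells Cxcl12 led with 795 ± 74.0 TPM, followed by Cxcl1 (421 ± 61.9), Ccl11 (283 ± 41.9), Ccl2 (186 ± 58.5), Ccl21a (81.7 ± 54.4), Ccl7 (76.7 ± 24.8), Cxcl13 (65.7 ± 9.39), Ccl8 (49.98 ± 8.81), Cxcl16 (40.2 ± 1.94) and Ccl19 (4.34 ± 1.66). Neighbours from Ccl2 down to Cxcl16 overlapped in range, while Cxcl12, Cxcl1, Ccl11 and Ccl2 did not overlap each other and Ccl19 lay below all. In small intestine GFP-positive cells Ccl21a (3792 ± 2181 TPM) stood above Cxcl1 (409 ± 44.0), Cxcl12 (387 ± 114), Ccl2 (333 ± 102), Ccl11 (279 ± 122) and Cxcl13 (249 ± 127), whose neighbours overlapped. Cxcl16 (58.5 ± 16.8), Ccl19 (41.9 ± 26.3) and Ccl7 (29.9 ± 24.8) followed, also with overlapping ranges, and Ccl8 was lowest at 0.622 ± 0.571 TPM. In small intestine GFP-negative cells every neighbouring pair overlapped. There Ccl11 led with 658 ± 255 TPM, then Cxcl1 (527 ± 160), Cxcl12 (318 ± 182), Ccl2 (197 ± 94.8), Cxcl16 (132 ± 60.5), Ccl21a (54.9 ± 56.5), Cxcl13 (46.7 ± 17.9), Ccl7 (39.1 ± 40.9), Ccl19 (9.62 ± 4.01) and Ccl8 (8.60 ± 7.73).

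**Figure D2:**
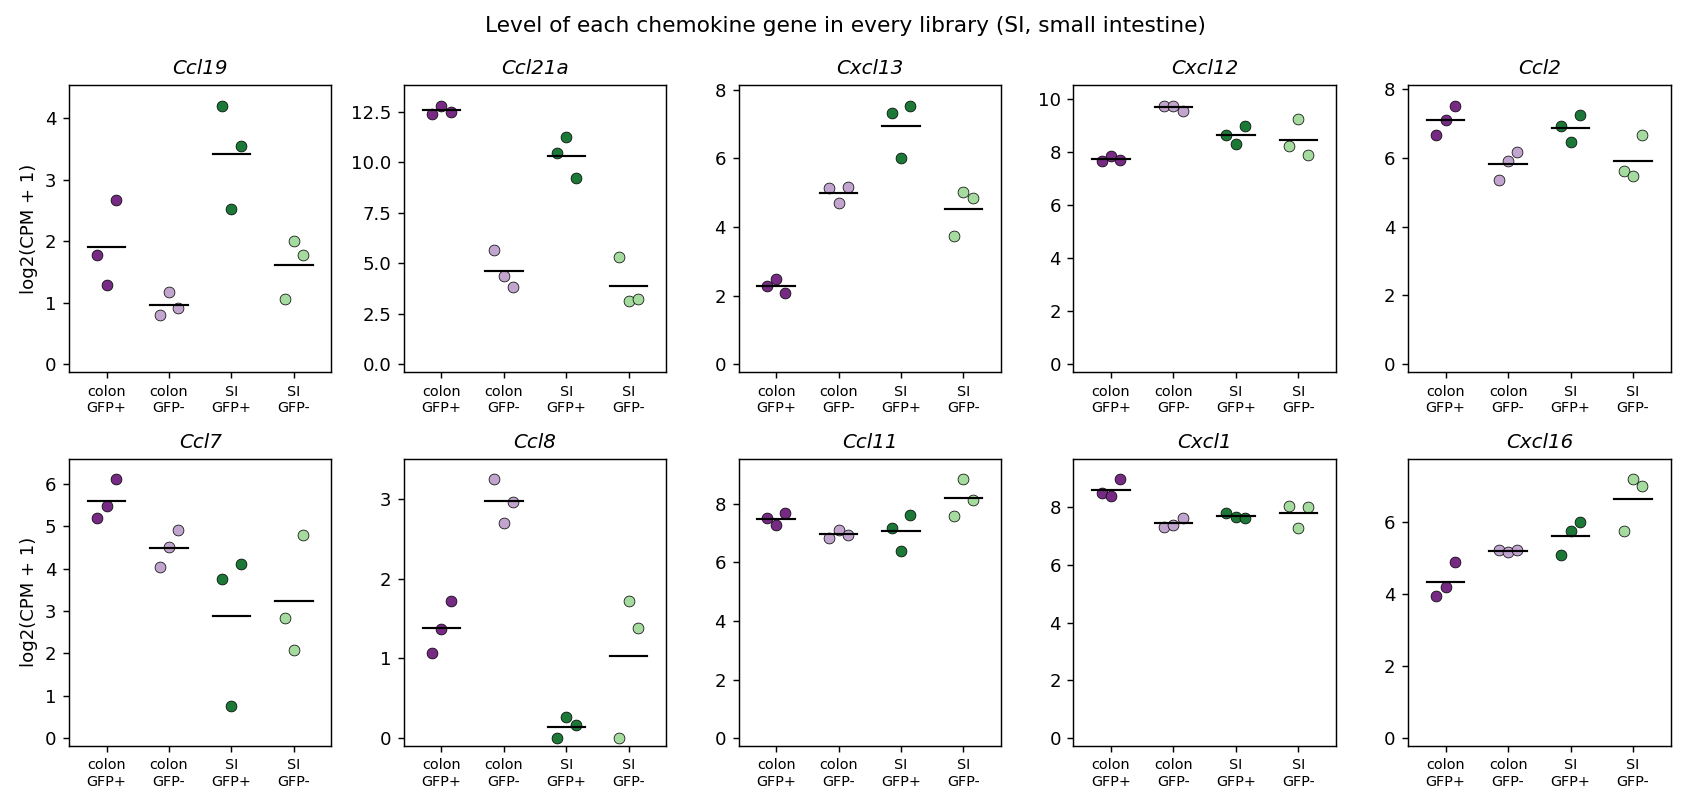
Each panel gives 1 chemokine gene, with log2(CPM + 1) on the vertical axis, a point for each library and a line at the mean of 3 libraries per group, for colon and small intestine (SI) GFP-positive and GFP-negative cells. Ccl21a is high in both GFP-positive groups, while Cxcl13 is lowest in colon GFP-positive and highest in small intestine GFP-positive cells.

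The sort by the Rspo3 reporter separated several of the 10 genes in each tissue. In the colon Ccl21a, Ccl2 and Cxcl1 were higher and Cxcl12 and Cxcl13 lower in GFP-positive than in GFP-negative cells. In the small intestine Ccl21a, Ccl19 and Cxcl13 were higher and Ccl11 lower in GFP-positive cells. A gene was called where its Benjamini-Hochberg adjusted p in edgeR's quasi-likelihood test, over all 16757 genes, was under 0.05. Thus in the colon 3 of 10 were called higher, against 4.62% of all genes tested, and 2 lower, against 4.06%. In the small intestine 3 were called higher, against 4.24%, and 1 lower, against 6.63%. The median log2 fold change of the 10 genes was 0.85 in the colon (all genes -0.03) and -0.02 in the small intestine (all genes -0.03). Without the 2 libraries named above the colon counts were 3 higher and 2 lower, and the small intestine counts were 3 higher, with Ccl2 called in place of Ccl19, and 0 lower. For the lower genes of the small intestine over all libraries, limma-voom called 1 and DESeq2 3, and edgeR had 3 at an unadjusted p under 0.05. The calls above come from a fit that does not pair same-numbered sorts, although those of the small intestine may be paired. With the replicate number as a block in edgeR, the small intestine calls of Ccl21a and Cxcl13 held. Those of Ccl19 and Ccl11 were lost (adjusted p = 0.107 and 0.121), while Ccl2 was called higher (0.0087) and Cxcl16 lower (0.0221).

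The GFP effect itself was then compared between the tissues, as the colon effect minus the small intestine effect. Of the 10 genes, 2 were called lower in this difference, Cxcl12 and Cxcl13, against 0.895% of all genes, and 0 were called higher, against 1.16%. At an unadjusted p under 0.05 in edgeR 2 were higher, Ccl11 and Cxcl1, and DESeq2 called 2 higher where limma-voom called 0. Without the 2 libraries named above only Cxcl13 was called.

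**Figure D3:**
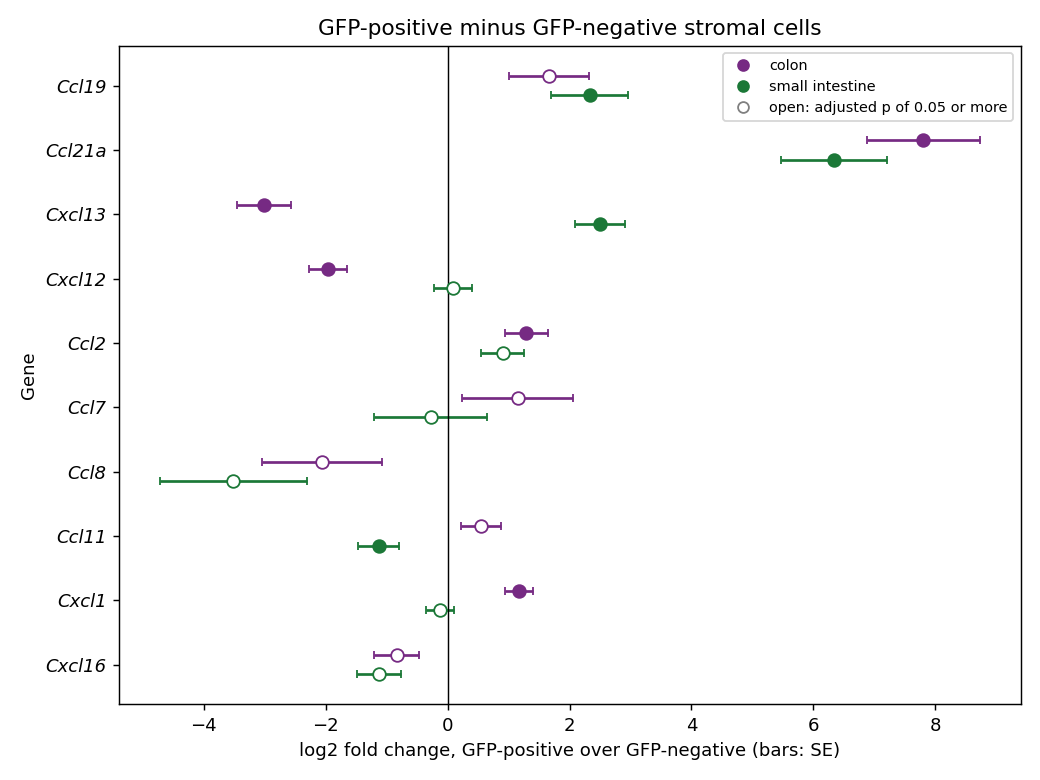
Points give the log2 fold change of GFP-positive over GFP-negative cells for each gene, with bars of 1 SE, for the colon above the small intestine. Filled points have an adjusted p under 0.05. Ccl21a lies far to the right in both tissues, and Cxcl13 lies at -3.01 in the colon and 2.51 in the small intestine.

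The tissues were also compared within each sort. Among GFP-positive cells 1 of 10 was called higher in the colon, Cxcl1, against 2.75% of all genes, and 1 lower, Cxcl13, against 1.81%. Among GFP-negative cells 0 were called higher in the colon, against 2.2%, and 2 lower, Ccl11 and Cxcl16, against 2.01%. For the count of 0, edgeR had 2 genes at an unadjusted p under 0.05, Ccl8 and Cxcl12, DESeq2 and limma-voom called 1 each, and the deposited log2(TPM + 1) table called both. That deposited scale called 0 lower, with adjusted p of 0.294 for Ccl11 and 0.0624 for Cxcl16. It lacks the rescaling to protein-coding genes. Their share of deposited TPM was higher in the colon within each sort, which shifts its tissue differences toward the colon. The median log2 fold change of the 10 genes was 0.29 in GFP-positive (all genes -0.02) and 0.12 in GFP-negative cells (all genes -0.06). Without the 2 libraries named above Cxcl13 was the only call left in either comparison. These comparisons use the same libraries as the GFP comparisons and are not independent of them.

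**Figure D4:**
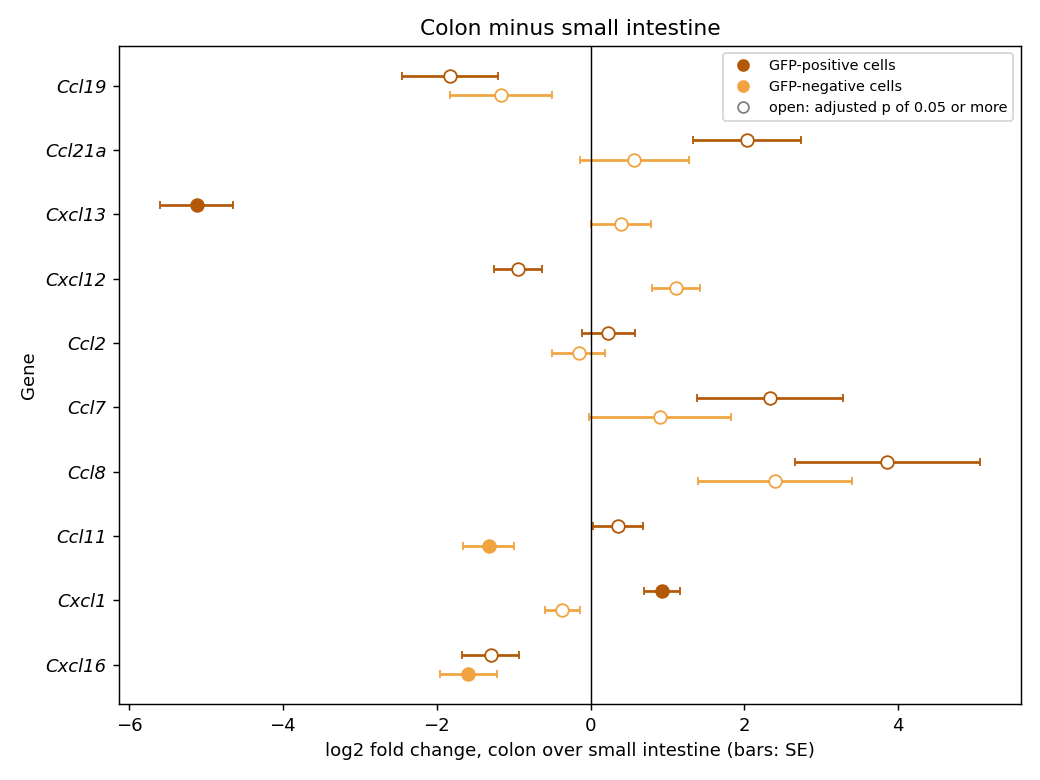
Points give the log2 fold change of colon over small intestine for each gene, with bars of 1 SE, in GFP-positive cells above GFP-negative cells. Filled points have an adjusted p under 0.05. Cxcl13 in GFP-positive cells lies farthest from 0, at -5.12.

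Ccl21a encodes a ligand of CCR7 that lymphatic endothelium displays to draw dendritic cells into lymph vessels. It measured 5359, 7123 and 5746 CPM in colon GFP-positive libraries, against 49.0, 19.5 and 13.05 CPM in colon GFP-negative libraries. GFP-positive libraries of the small intestine held 1385, 2469 and 593 CPM, against 38.7, 7.63 and 8.36 CPM in their GFP-negative counterparts. Every GFP-positive library was above every GFP-negative library in both tissues. The log2 fold change was 7.81 ± 0.92 in the colon (SE, n = 3 per group, edgeR adjusted p = 0.000549) and 6.34 ± 0.87 in the small intestine (adjusted p = 0.00121). Both calls held in all 6 fits that left out 1 library of the groups compared. Among GFP-positive cells all 3 colon libraries were above all 3 small intestine libraries, with a log2 difference of 2.04 ± 0.71 that was not called (adjusted p = 0.163). The fit limited to the libraries compared called this difference (adjusted p = 0.0369), as did the deposited log2(TPM + 1) table (0.0373). DESeq2 (0.0962) and limma-voom (0.0844) did not. Among GFP-negative cells the ranges of colon and small intestine overlapped (0.57 ± 0.71, adjusted p = 0.756). The GFP effects of the tissues differed by 1.47 ± 0.99 (adjusted p = 0.579), which was not called.

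The GFP difference of Ccl21a was also called with the copies present in the count table added. Gm21541 took 31.6%, 34.2% and 30.1% of the counts of both genes in colon GFP-positive libraries and 31.1%, 42.2% and 43.1% in colon GFP-negative libraries. In the small intestine its share was 25.3%, 18.5% and 23.5% in GFP-positive and 11.3%, 40.7% and 10.3% in GFP-negative libraries. The shares in GFP-positive cells were higher in all 3 colon than in all 3 small intestine libraries. Gm21541 itself was called higher in GFP-positive cells of the colon (7.55 ± 0.64, adjusted p = 6.42e-05) and of the small intestine (6.72 ± 0.63, adjusted p = 0.000168), and higher in colon than in small intestine GFP-positive cells (2.84 ± 0.51, adjusted p = 0.00805). With Ccl21a, Gm21541 and a scaffold copy of Ccl21a summed, the levels were 7833, 10825 and 8218 CPM in colon GFP-positive and 71.1, 33.8 and 22.9 CPM in colon GFP-negative libraries. In the small intestine the sums were 1855, 3028 and 776 CPM in GFP-positive and 43.6, 12.8 and 10.6 CPM in GFP-negative libraries. The log2 fold change of the sum was 7.72 in the colon (adjusted p = 0.000235) and 6.39 in the small intestine (adjusted p = 0.000521), and the GFP-positive tissue difference was 2.25 (adjusted p = 0.0697).

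Ccl21a and the lymphatic endothelial markers were both high in GFP-positive and low in GFP-negative libraries, with the same order of libraries within some groups only. Small intestine GFP-positive replicate 3 had the lowest Ccl21a of the GFP-positive libraries, 593 CPM, and the lowest lymphatic marker sum, 3721 CPM, against 9896 CPM in replicate 1 and 12570 CPM in replicate 2. Among the GFP-negative libraries of each tissue, replicate 1 had the highest Ccl21a and the highest marker sum, 288 CPM in the colon and 559 CPM in the small intestine. All 3 libraries had the same order for both in small intestine GFP-positive and in colon GFP-negative cells. Colon GFP-positive replicate 2 was highest for both, while replicates 1 and 3 were in opposite order. Small intestine GFP-negative replicates 2 and 3 were also in opposite order. Small intestine GFP-positive replicate 2 and colon GFP-positive replicate 3 had similar marker sums, 12570 and 12280 CPM, with 2469 and 5746 CPM of Ccl21a. The part of lymphatic endothelial content in the Ccl21a difference was not tested.

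**Figure D5:**
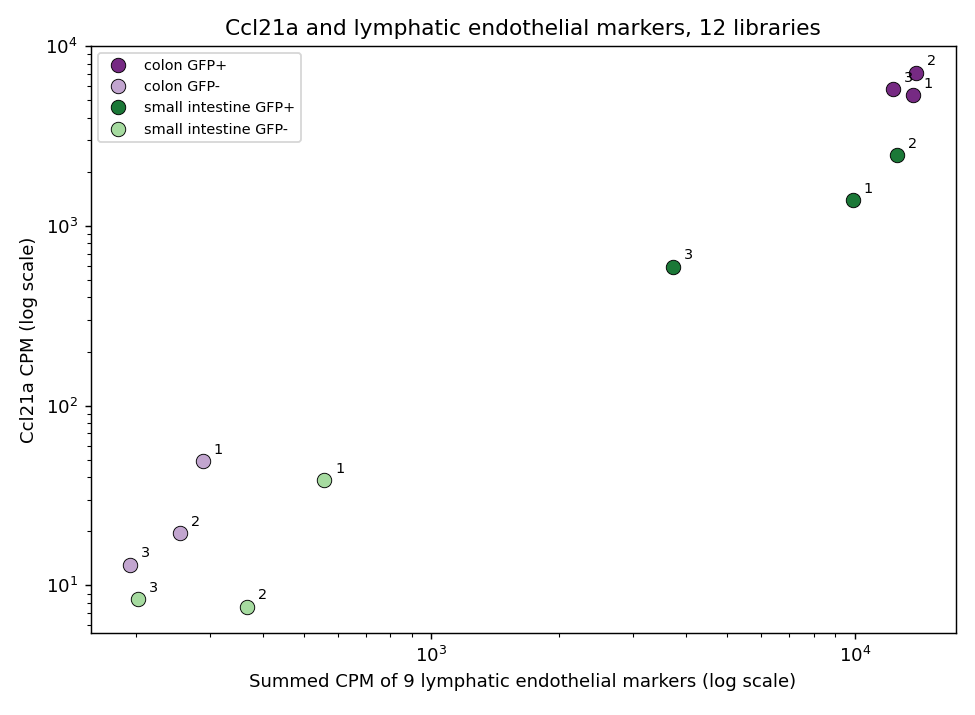
Points are the 12 libraries, numbered by replicate, with the summed CPM of 9 lymphatic endothelial markers on the horizontal and Ccl21a CPM on the vertical axis, both on log scales. GFP-negative libraries reach at most 49.0 CPM of Ccl21a and GFP-positive libraries start at 593 CPM, with the 3 colon GFP-positive libraries highest for Ccl21a.

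Ccl19, the other CCR7 ligand, was a low-count gene. It measured 2.42, 1.45 and 5.37 CPM in colon GFP-positive libraries, against 0.733, 1.26 and 0.887 CPM in colon GFP-negative libraries. Small intestine libraries had 17.5, 4.73 and 10.8 CPM when GFP-positive, against 1.082, 3.03 and 2.41 CPM when GFP-negative. The groups did not overlap in either tissue. On the log2 scale the GFP difference was 1.66 ± 0.66 in the colon, not called (edgeR adjusted p = 0.167), and 2.33 ± 0.64 in the small intestine, called at an adjusted p of 0.0337. The small intestine call was lost without GFP-positive replicate 1 (adjusted p = 0.150) or 3 (0.0704), without GFP-negative replicate 1 (0.105) or 3 (0.0691), and with the replicate number as a block (0.107). Colon GFP-positive cells had less Ccl19 than small intestine GFP-positive cells on average, with overlapping ranges and no call (-1.83 ± 0.62, adjusted p = 0.141). Gm2564, which differs from Ccl19-201 at 8 of 707 bases, had 14 counts in small intestine GFP-positive replicate 1, 35 in replicate 3 and none in any other library, and how reads were split between the genes was not tested. General fibroblast markers summed to 36850 to 56700 CPM in small intestine GFP-positive and 7430 to 20580 CPM in small intestine GFP-negative libraries, none of the 10 at 0, and their part in the Ccl19 difference was not tested.

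Cxcl13, the B cell attractant that binds CXCR5, was ordered in opposite ways in the tissues. It measured 3.85, 4.62 and 3.20 CPM in colon GFP-positive libraries, against 34.3, 25.1 and 34.6 CPM in colon GFP-negative libraries. GFP-positive libraries of the small intestine held 159, 62.8 and 184 CPM, against 12.3, 31.3 and 27.8 CPM in their GFP-negative counterparts. Every colon GFP-positive library was thus below, and every small intestine GFP-positive library above, all GFP-negative libraries of its tissue. The log2 fold change was -3.01 ± 0.44 in the colon (edgeR adjusted p = 0.00124) and 2.51 ± 0.41 in the small intestine (adjusted p = 0.00235). The difference of these effects was -5.52 ± 0.60 (adjusted p = 0.0023), and it was called in all 12 fits that left out 1 library (highest adjusted p = 0.0141). Colon GFP-positive cells had less Cxcl13 than small intestine GFP-positive cells (-5.12 ± 0.47, adjusted p = 0.00044), while the GFP-negative cells of the tissues overlapped (0.40 ± 0.39, adjusted p = 0.673).

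Of 5 listed markers of lymphoid follicle stroma (Cr2, Fcer2a, Madcam1, Tnfsf11 and Bst1), 2 passed the filter on low counts. The summed level of the 5 was 0.22 to 2.64 CPM in colon GFP-positive and 0.633 to 8.65 CPM in colon GFP-negative libraries. It was 0 to 4.61 CPM in small intestine GFP-positive libraries and 53.4 to 77.7 CPM in small intestine GFP-negative libraries. Madcam1, which venules also express, made up 68.2 and 50.97 CPM of that sum in GFP-negative replicates 1 and 2, and 17.5 CPM in replicate 3, the library rich in leukocyte markers. Fcer2a was at 0 in all small intestine GFP-positive and all colon GFP-negative libraries. B and plasma cell markers summed to 58.2 to 319 CPM in small intestine GFP-positive libraries, against 148 to 9007 CPM in small intestine GFP-negative libraries. General fibroblast markers, given above with Ccl19, were higher in small intestine GFP-positive cells, as Cxcl13 was, and their part was not tested.

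Cxcl12 encodes the ligand of CXCR4 and of the scavenging receptor ACKR3. It measured 201, 228 and 207 CPM in colon GFP-positive libraries, against 866, 857 and 761.8 CPM in colon GFP-negative libraries. Small intestine libraries had 402, 316 and 509 CPM when GFP-positive, against 297, 617 and 238 CPM when GFP-negative. The colon groups were far apart and the small intestine groups overlapped. On the log2 scale the GFP difference was -1.97 ± 0.32 in the colon (edgeR adjusted p = 0.00199, called in all 6 fits that left out 1 library) and 0.09 ± 0.31 in the small intestine (adjusted p = 0.907). The small intestine estimate had no stable sign, at -0.07 without GFP-negative replicate 1, -0.16 without GFP-negative replicate 3 and -0.09 without GFP-positive replicate 3. The difference of the GFP effects was -2.06 ± 0.44 (adjusted p = 0.0332). That call was lost without any 1 of the 6 colon libraries, without small intestine GFP-negative replicate 1 and without small intestine GFP-positive replicate 1 or 3 (adjusted p 0.0641 to 0.0907), and was held in the other 3 of 12 such fits.

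Between tissues Cxcl12 was at 201 to 228 CPM in colon and 316 to 509 CPM in small intestine GFP-positive cells, and at 761.8 to 866 CPM in colon and 238 to 617 CPM in small intestine GFP-negative cells. Neither pair overlapped. The log2 difference of colon minus small intestine was -0.95 ± 0.31 in GFP-positive (adjusted p = 0.122) and 1.11 ± 0.31 in GFP-negative cells (adjusted p = 0.0676), and the GFP-negative difference was called without small intestine GFP-negative replicate 2 (1.64, adjusted p = 0.00185). Several stromal marker lists moved with Cxcl12 in the colon. Subepithelial fibroblast markers summed to 68.9 to 117 CPM in colon GFP-positive and 857 to 924 CPM in colon GFP-negative libraries, and pericyte markers to 196 to 209 CPM in colon GFP-positive and 471 to 763 CPM in colon GFP-negative libraries. Smooth muscle markers summed to 636 to 775 CPM in colon GFP-positive and 2911 to 3830 CPM in colon GFP-negative libraries. Of these lists, Npy was at 0 in both colon groups and Higd1b in colon GFP-positive cells. Synm, a smooth muscle marker, went the other way, at 152 to 174 CPM in colon GFP-positive and 90.1 to 119 CPM in colon GFP-negative libraries. Kcnj8, a pericyte marker, overlapped, at 24.9 to 32.2 and 10.6 to 27.3 CPM. In the small intestine, where Cxcl12 overlapped, smooth muscle markers summed to 880 to 1002 CPM in GFP-positive and 1521 to 4150 CPM in GFP-negative libraries. General fibroblast markers summed to 18940 to 22850 CPM in colon GFP-positive and 21920 to 24050 CPM in colon GFP-negative libraries. Their part in the Cxcl12 difference was not tested.

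Ccl2, which attracts monocytes through CCR2, was higher in colon GFP-positive cells. It measured 101, 135 and 182 CPM in colon GFP-positive libraries, against 39.8, 59.3 and 71.6 CPM in colon GFP-negative libraries. GFP-positive libraries of the small intestine held 120, 86.1 and 150 CPM, against 47.7, 43.5 and 99.4 CPM in their GFP-negative counterparts. The colon groups did not overlap, and in the small intestine GFP-negative replicate 3, the library rich in leukocyte markers, lay above GFP-positive replicate 2. The log2 fold change was 1.29 ± 0.35 in the colon (edgeR adjusted p = 0.0391) and 0.90 ± 0.35 in the small intestine (adjusted p = 0.131). Without small intestine GFP-negative replicate 3 the small intestine value was 1.38 and called (adjusted p = 0.0158), and it was also called with the replicate number as a block (0.97, adjusted p = 0.0087). The colon call was lost without GFP-positive replicate 2 (adjusted p = 0.101) or 3 (0.148) or any 1 of the GFP-negative replicates (0.174, 0.125 and 0.0652 without replicates 1, 2 and 3). Of 11 macrophage and dendritic cell markers, none at 0 in either colon group, 1 was called higher and 0 lower in colon GFP-positive cells. The shares of all genes were 4.62% and 4.06%. The median log2 fold change of the 11 was -0.27. Their sum was 141 to 178 CPM in colon GFP-positive libraries, of which Mrc1 alone was 133 to 152 CPM, and 24.3 to 29.0 CPM in colon GFP-negative libraries, with Mrc1 at 2.20 to 3.29 CPM. The part of these markers, or of Mrc1, the mannose receptor gene, in the Ccl2 difference was not tested. Colon and small intestine overlapped in both sorts (0.23 ± 0.35 in GFP-positive and -0.16 ± 0.35 in GFP-negative cells, adjusted p = 0.825 and 0.883).

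Ccl7 and Ccl8, further monocyte attractants beside Ccl2 on chromosome 11, were not called by edgeR in any of the 5 comparisons over all libraries. With the fit limited to the colon libraries both were called in the colon GFP comparison (adjusted p = 0.0318 for Ccl7 and 0.0069 for Ccl8). Ccl7 measured 35.7, 43.7 and 68.2 CPM in colon GFP-positive libraries, against 15.6, 21.8 and 29.3 CPM in colon GFP-negative libraries (1.15 ± 0.91, adjusted p = 0.580). It measured 12.5, 0.69 and 16.3 CPM in small intestine GFP-positive libraries, against 6.13, 3.24 and 26.9 CPM in small intestine GFP-negative libraries (-0.28 ± 0.93, adjusted p = 0.905). The colon groups did not overlap and the small intestine groups overlapped, with the sign turning to 0.28 without GFP-positive replicate 2 and to 1.07 without GFP-negative replicate 3. Among GFP-positive cells every colon library lay above every small intestine library for Ccl7 (2.33 ± 0.95, adjusted p = 0.249).

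Ccl8 had few counts in either sort of the small intestine. Its level was 1.099, 1.59 and 2.29 CPM in colon GFP-positive libraries, against 8.51, 5.48 and 6.84 CPM in colon GFP-negative libraries, without overlap (-2.06 ± 0.99, adjusted p = 0.279), and the deposited log2(TPM + 1) table called it (adjusted p = 0.00238). Small intestine GFP-positive libraries held 0, 2 and 1 counts, against 0, 22 and 10 counts in small intestine GFP-negative libraries. That is a ratio of pooled CPM of 0.0738 with an exact 95% counting interval of 0.0145 to 0.236, which covers counting error only. The fitted log2 difference was not called (-3.51 ± 1.201, adjusted p = 0.0846) and was called without GFP-negative replicate 1 (adjusted p = 0.0129), which held 0 counts, and by DESeq2 (0.0188). Colon GFP-positive cells held 42 counts of Ccl8 over their 3 libraries, against 3 in small intestine GFP-positive cells, a ratio of pooled CPM of 16.9 (5.39 to 85.1), called by DESeq2 (0.0145). Between GFP-negative cells the deposited table called Ccl8 higher in the colon (0.000834).

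Ccl11, the eosinophil attractant eotaxin, averaged highest in small intestine GFP-negative cells. It measured 181, 156 and 205 CPM in colon GFP-positive libraries, against 113, 138 and 121 CPM in colon GFP-negative libraries. Small intestine libraries had 144, 82.8 and 197 CPM when GFP-positive, against 190, 457 and 283 CPM when GFP-negative. The colon groups did not overlap and the small intestine groups did. On the log2 scale the GFP difference was 0.54 ± 0.33 in the colon (edgeR adjusted p = 0.420) and -1.13 ± 0.33 in the small intestine (adjusted p = 0.0451). With the fit limited to the libraries of each tissue, Ccl11 was called in the colon (adjusted p = 0.0136) and not in the small intestine (0.199). The small intestine call was lost without GFP-positive replicate 1 (adjusted p = 0.112) or 2 (0.146), without GFP-negative replicate 2 (0.128, with the value at -0.73) or 3 (0.0664), and with the replicate number as a block (0.121). GFP-negative replicate 2, the highest for Ccl11, also had the most pericyte (1823 CPM), smooth muscle (4150 CPM) and general fibroblast (20580 CPM) marker RNA of its group, whose part was not tested. The GFP effects differed by 1.68 ± 0.47 between the tissues (adjusted p = 0.0866).

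Within GFP-negative cells Ccl11 was lower in the colon than in the small intestine, at 113 to 138 CPM against 190 to 457 CPM (-1.32 ± 0.33, adjusted p = 0.0448). This call was lost without small intestine replicate 2 (adjusted p = 0.0902) or 3 (0.0568) and without colon replicate 1 (0.155), 2 (0.136) or 3 (0.188). Within GFP-positive cells the tissues overlapped (0.36 ± 0.33, adjusted p = 0.686).

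Cxcl1, a neutrophil attractant that binds CXCR2, was highest in colon GFP-positive cells. It measured 360, 333 and 502 CPM in colon GFP-positive libraries, against 161, 169 and 200 CPM in colon GFP-negative libraries. GFP-positive libraries of the small intestine held 223, 204 and 199.6 CPM, against 267, 156 and 260 CPM in their GFP-negative counterparts. All 3 colon GFP-positive libraries lay above the 9 others, and the small intestine groups overlapped. The log2 fold change was 1.18 ± 0.23 in the colon (edgeR adjusted p = 0.00653, called in all 6 fits that left out 1 library) and -0.12 ± 0.23 in the small intestine (adjusted p = 0.817). The GFP effects differed by 1.30 ± 0.32, short of the threshold (adjusted p = 0.0619), and past it without small intestine GFP-negative replicate 2 (1.501, adjusted p = 0.00644).

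Within GFP-positive cells Cxcl1 was higher in the colon than in the small intestine (0.93 ± 0.23, adjusted p = 0.038). That call was lost without small intestine replicate 1 (adjusted p = 0.0923), 2 (0.0962) or 3 (0.122) and without colon replicate 1 (0.0598), 2 (0.0582) or 3 (0.164). Colon GFP-positive replicate 3, the highest for Cxcl1, was also the highest of the GFP-positive libraries for the 9 epithelial markers, at 1491 CPM against 258 and 507 CPM in the other colon and 7.16 to 14.98 CPM in the small intestine GFP-positive libraries. Colon GFP-negative libraries held 919 to 2035 CPM of the same markers, whose part in the Cxcl1 differences was not tested. Without that library the colon GFP call of Cxcl1 held (0.985, adjusted p = 0.0318), as it did without it and small intestine GFP-negative replicate 3 (0.976, adjusted p = 0.0231).

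Cxcl16, made as a transmembrane protein and shed by ADAM10, was lower in colon than in small intestine GFP-negative cells. It measured 14.3, 17.3 and 28.7 CPM in colon GFP-positive libraries, against 36.5, 34.7 and 36.1 CPM in colon GFP-negative libraries. Small intestine libraries had 32.5, 52.6 and 62.8 CPM when GFP-positive, against 52.9, 144 and 127 CPM when GFP-negative. The colon groups did not overlap and the small intestine groups did. Neither GFP effect was called over all libraries (-0.83 ± 0.37 in the colon and -1.13 ± 0.36 in the small intestine, edgeR adjusted p = 0.234 and 0.0694). With the fit limited to the libraries of each tissue, the colon effect was called (adjusted p = 0.0329) and the small intestine effect was not (0.186). The small intestine effect was called without GFP-negative replicate 1 (-1.46, adjusted p = 0.0116) and with the replicate number as a block (-1.06, adjusted p = 0.0221).

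The tissue difference of Cxcl16 was -1.59 ± 0.37 in GFP-negative cells (adjusted p = 0.0337) and -1.29 ± 0.37 in GFP-positive cells (adjusted p = 0.0746), and no colon library overlapped the small intestine libraries of its sort. The GFP-negative call was lost without small intestine replicate 2 (adjusted p = 0.0657) or 3 (0.0683) and without colon replicate 1 (0.113), 2 (0.143) or 3 (0.147). Macrophage and dendritic cell markers summed to 24.3 to 29.0 CPM in colon and 14.3 to 974 CPM in small intestine GFP-negative libraries, with the 974 CPM in replicate 3. Cxcl16 was highest in small intestine GFP-negative replicate 2, where those markers were at 14.3 CPM, and their part in the Cxcl16 difference was not tested.

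The other chemokine ligands of a list of 28, of which 12 were tested, were in several cases lower in GFP-positive cells. In the colon 3 of the 12 were called lower, against 4.06% of all genes tested, and 0 higher, against 4.62%, with a median log2 fold change of -0.75. Small intestine GFP-positive cells had 6 called lower, against 6.63%, and 0 higher, against 4.24%, with a median of -2.07. No member was higher at an unadjusted p under 0.05 in edgeR, or called higher by DESeq2 or limma-voom, in either tissue. Cxcl14, a chemokine of resting epithelium and stroma, fell in GFP-positive cells of the colon (5.41 ± 1.29 CPM, against 57.6 ± 3.69 CPM in GFP-negative cells, adjusted p = 0.000869) and of the small intestine (13.7 ± 8.18 CPM, against 64.4 ± 22.7 CPM, adjusted p = 0.00674). Cxcl9, an interferon-induced T cell attractant, fell in GFP-positive cells of the colon (10.3 ± 0.94 CPM, against 72.1 ± 20.9 CPM, adjusted p = 0.00146). Ccl25, the small intestinal ligand of CCR9, fell in GFP-positive cells of the small intestine (4.92 ± 0.95 CPM, against 33.7 ± 14.3 CPM, adjusted p = 0.00272). Epithelial markers summed to 7.16 to 14.98 CPM in these GFP-positive and 231 to 905 CPM in these GFP-negative libraries, and their part in the Ccl25 difference was not tested.

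Further ligands of that list were called with less stability. Cx3cl1, a membrane-bound ligand of CX3CR1, fell in GFP-positive cells of the small intestine (-1.92 ± 0.32, adjusted p = 0.00255) and of the colon (-1.1 ± 0.32, adjusted p = 0.0481), where leaving out any 1 library ended the call (adjusted p 0.0896 to 0.184), as did the replicate number as a block (0.0838). Ccl6 had 0 counts in all small intestine GFP-positive libraries and 10, 12 and 126 counts in the GFP-negative libraries, so it was at least 62.7-fold lower, with the floor set at 3 counts for the 3 libraries together. The largest count was in the library rich in leukocyte markers, without which Ccl6 was at least 12.6-fold lower, and the call (adjusted p = 0.0201) was lost without any 1 GFP-positive library (0.0543 to 0.0657). Between tissues, Ccl28 was higher in colon than in small intestine GFP-positive cells (9.98 ± 7.37 CPM, against 0.549 ± 0.654 CPM, adjusted p = 0.0167), a call lost without small intestine replicate 1 (0.0837) or 2 (0.0546) or colon replicate 3 (0.0664), and without that replicate and small intestine GFP-negative replicate 3 together (0.0572). The 9 epithelial markers summed to 258, 507 and 1491 CPM in these colon and 7.16 to 14.98 CPM in these small intestine libraries, and their part in the Ccl28 difference was not tested. Ccl25 was lower in colon than in small intestine GFP-negative cells (-2.53 ± 0.47, adjusted p = 0.0119), a call lost without colon replicate 2 (0.0669).

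The receptors that leukocytes use to sense these ligands were low outside small intestine GFP-negative replicate 3, the library rich in leukocyte markers. Ccr2, Ccr9, Cxcr4, Cxcr6 and Cx3cr1 measured 15.9 to 67.5 CPM in that replicate 3 and at most 2.84 CPM in any other library. Cxcr4, the receptor of CXCL12, measured 0 to 1.42 CPM in small intestine GFP-positive libraries and 2.28, 2.30 and 67.5 CPM in GFP-negative libraries. Ccr7, the receptor of CCL19 and CCL21, and Cxcr5, the receptor of CXCL13, passed no filter and had 37.5 and 23.0 CPM in that library, against at most 2.13 and 1.18 CPM in any other.

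Atypical receptors, which bind chemokines without G protein signalling and remove them, were mostly higher in GFP-positive cells. Of 5 tested, 3 were called higher in each tissue, against 4.62% of all genes in the colon and 4.24% in the small intestine. In the small intestine 1 was lower, against 6.63% of all genes. In the colon 0 were lower, against 4.06% (0 at an unadjusted p under 0.05 in edgeR and 0 by DESeq2 or limma-voom). Ackr4, a scavenger of CCL19, CCL21 and CCL25, averaged 247 ± 20.4 CPM in colon GFP-positive and 23.8 ± 0.197 CPM in colon GFP-negative cells (adjusted p = 4.6e-05), and 458 ± 102 CPM in small intestine GFP-positive and 29.8 ± 12.1 CPM in small intestine GFP-negative cells (adjusted p = 2.4e-05). Ackr2, which lymphatic endothelium uses to clear inflammatory CC chemokines, averaged 254 ± 24.8 CPM in colon GFP-positive and 2.57 ± 1.67 CPM in colon GFP-negative cells (adjusted p = 0.000383), and 63.7 ± 33.5 CPM in small intestine GFP-positive and 1.77 ± 1.60 CPM in small intestine GFP-negative cells (adjusted p = 0.00109). Ackr3, a scavenger of CXCL12, rose by 1.45 ± 0.25 on the log2 scale in the colon (adjusted p = 0.00277) and by 1.17 ± 0.25 in the small intestine (adjusted p = 0.00872). Ackr1, a marker of venules, was lower in small intestine GFP-positive cells (-2.97 ± 0.67, adjusted p = 0.0139), a call lost without GFP-positive replicate 1 (0.0648). The 9 blood endothelial markers, Ackr1 among them, summed to 598 to 792 CPM in small intestine GFP-positive libraries, with Sox17 at 0, and 754 to 2465 CPM in small intestine GFP-negative libraries. Of the 9, 1 was called higher and 6 lower, against 4.24% and 6.63% of all genes (median -4.50), and their part in the Ackr1 difference was not tested.

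Few proteases that cut chemokines were tested. Of 4 tested of 6 listed, 1 was called higher (4.62% of all genes) and 1 lower (4.06%) in the colon and 0 higher (4.24%) and 1 lower (6.63%) in the small intestine, with median log2 fold changes of 0.41 in the colon and 0.07 in the small intestine. For the count of 0, edgeR had 0 at an unadjusted p under 0.05 and DESeq2 and limma-voom called 0. Adam10, the sheddase of CXCL16, was higher in colon GFP-positive cells (241 ± 13.7 CPM, against 90.0 ± 3.52 CPM in GFP-negative cells, adjusted p = 0.000813). Mmp2, which can cleave CXCL12, was lower in them (288 ± 15.8 CPM, against 776 ± 45.6 CPM, adjusted p = 0.0184), a call lost without any 1 of the 6 libraries (0.054 to 0.089). Dpp4, an enzyme that inactivates CXCL12 among others, was lower in small intestine GFP-positive cells (1.76 ± 0.918 CPM, against 31.3 ± 26.3 CPM, adjusted p = 0.00192). Between tissues, among GFP-positive cells, Adam10 was higher in the colon (0.84 ± 0.20, adjusted p = 0.0277) and so was Dpp4 (2.71 ± 0.63, adjusted p = 0.0283). The Adam10 call held only without small intestine replicate 1, with adjusted p of 0.0515 to 0.101 in the other 5 fits that left out 1 library. The Dpp4 call was lost without small intestine replicate 1 (0.112) or 2 (0.0999) or colon replicate 2 (0.0564) or 3 (0.109). Epithelial markers summed to 7.16 to 14.98 CPM in small intestine GFP-positive and 231 to 905 CPM in small intestine GFP-negative libraries. They summed to 258 to 1491 CPM in colon GFP-positive libraries, and their part in the Dpp4 differences was not tested.

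Genes of lymphotoxin and NF-kappaB signalling, which induce homeostatic chemokines in lymphoid stroma, showed few calls. Of 17 tested of 18 listed, 1 was higher and 2 lower in colon GFP-positive cells, against 4.62% and 4.06% of all genes. In small intestine GFP-positive cells 0 were called in either direction, against 4.24% higher and 6.63% lower, where edgeR had 1 higher and 3 lower at an unadjusted p under 0.05, DESeq2 called 2 lower and limma-voom 0. The median was -0.05 in the colon and -0.30 in the small intestine. Il1r1, the interleukin 1 receptor, was lower in colon GFP-positive cells (40.1 ± 7.63 CPM, against 88.8 ± 13.3 CPM in GFP-negative cells, adjusted p = 0.00258) and lower in colon than in small intestine GFP-positive cells (120.0 ± 8.49 CPM in the small intestine, adjusted p = 0.00107). Tnfrsf1b, a TNF receptor, was lower in colon GFP-positive than in colon GFP-negative cells (-1.05 ± 0.23, adjusted p = 0.0124), a call lost without GFP-positive replicate 1 (0.0607) or 3 (0.0676) or GFP-negative replicate 1 (0.054) or 3 (0.0621). Rela, an NF-kappaB subunit, was at 98.0 ± 7.80 CPM in colon GFP-positive and 68.2 ± 7.28 CPM in colon GFP-negative cells (adjusted p = 0.0492), a call lost without any 1 of the 6 libraries (0.0987 to 0.222). Between tissues Tnfrsf1b was lower in colon GFP-positive cells (adjusted p = 0.0403, lost without any 1 library at 0.0815 to 0.218), and Rela was lower in colon GFP-negative cells (adjusted p = 0.0439), a call held only without small intestine replicate 2 (0.0805 to 0.241 in the other 5 fits).

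Of 9 tested of 11 listed genes of lymphoid stroma, 1 was higher and 1 lower in colon GFP-positive cells, against 4.62% and 4.06% of all genes, and 2 were higher and 2 lower in small intestine GFP-positive cells, against 4.24% and 6.63%. The median log2 fold changes were -0.52 in the colon and 0.29 in the small intestine. Il7, a survival factor for lymphocytes, rose in GFP-positive cells of the colon (55.5 ± 1.55 CPM, against 5.81 ± 2.78 CPM in GFP-negative cells, adjusted p = 0.00084) and of the small intestine (23.7 ± 11.4 CPM, against 2.42 ± 1.18 CPM, adjusted p = 0.00108). Tnfsf13b, the B cell survival factor BAFF, fell in colon GFP-positive cells (12.5 ± 5.87 CPM, against 107 ± 21.6 CPM, adjusted p = 0.00159). Enpp2, the enzyme autotaxin, rose in small intestine GFP-positive cells (121 ± 10.1 CPM, against 45.4 ± 20.7 CPM, adjusted p = 0.0097). Madcam1, a vascular address molecule for gut lymphocytes, was lower in small intestine GFP-positive cells (0.416 ± 0.721 CPM, against 45.6 ± 25.8 CPM, adjusted p = 0.0211), a call lost without GFP-negative replicate 1 (0.0594) or GFP-positive replicate 2 (0.0718) or 3 (0.069), and the part of the blood endothelial markers given above with Ackr1 was not tested. Vcam1, an adhesion molecule, was lower there too (-1.03 ± 0.29, adjusted p = 0.0369), a call lost without GFP-positive replicate 1 (0.0838) or 2 (0.119), without GFP-negative replicate 1 (0.12) or 2 (0.0554), and with the replicate number as a block (0.05005).

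Between tissues 3 lymphoid stroma genes of the 9 tested were called. In GFP-positive cells 0 were higher in the colon, where limma-voom called 1, and 1 was lower, against 2.75% and 1.81% of all genes. In GFP-negative cells 1 was higher and 1 lower, against 2.2% and 2.01%. Enpp2 was lower in colon than in small intestine GFP-positive cells (-1.28 ± 0.30, adjusted p = 0.0292, lost without any 1 library at 0.0558 to 0.139). Among GFP-negative cells Icam1, an adhesion molecule, was lower in the colon (-1.39 ± 0.34, adjusted p = 0.0394), a call held only without small intestine replicate 3 (0.0576 to 0.158 in the other 5 fits). Tnfsf13b was higher there (1.91 ± 0.44, adjusted p = 0.0356), a call held only without small intestine replicate 2 (0.0531 to 0.131 in the other 5 fits).

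For each of the 10 genes, the genes with the most similar pattern over the 12 libraries were found among 7216 well-expressed genes. Likeness was the root mean square distance of log2 CPM after centring each gene on its own mean, so a distance of 0 is the same pattern, and groups and libraries are shared by all pairs. Ccl21a lay nearest to Lyve1, the hyaluronan receptor that marks lymphatic endothelium (0.786), and to Mmrn1, multimerin 1 (1.11), against its own spread of 3.81. Cxcl12 lay nearest to Dkk3 (0.225) and to Foxf1, a transcription factor of gut mesenchyme (0.232), against a spread of 0.776. Ccl2 lay nearest to the interferon-inducible Ifi205 (0.2) and to Tnfaip6, a hyaluronan-binding secreted protein (0.317), against a spread of 0.695. Cxcl1 lay nearest to Cers4, a ceramide synthase (0.218), and Aig1 (0.245), against a spread of 0.493.

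Distances given for the other 6 genes ran between 0.413 and 1.09. Cxcl13 lay nearest to Spon1, a matrix protein (0.845), and to Sfrp1, a secreted Wnt inhibitor (1.09), against a spread of 1.81. Ccl19 lay at a distance of 0.663 from C7, a complement component gene, against a spread of 1.27. Ccl7 lay nearest to Fosl1, an AP-1 subunit (0.869), and Emilin2 (1.04), against a spread of 1.66, and Ccl8 to Hpse, which encodes heparanase (0.9), and Hhip, a hedgehog-binding protein (1.01), against a spread of 1.80. Ccl11 lay nearest to Lrrc32 (0.413) and Atad3a (0.429), against a spread of 0.616. Cxcl16 lay nearest to Cnp (0.456) and to Hist2h2aa1, a histone of a multigene family (0.469), against a spread of 0.948.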

How the data were processed

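Total RNA of 12 sorted stromal cell libraries was extracted by column (Qiagen RNeasy) and depleted of ribosomal RNA with ZapR, per the labels' protocols. Salmon 1.1.0, R 3.6.1 and mm10 are named in the submitters' processing notes, while the annotation, filters and rounding are not given in the sources used here. The authors deposited estimated counts (expected counts per gene, 100% of values whole and taken as rounded), and a table on the log2 scale, log2(TPM + 1). Salmon shares reads among near-identical transcripts by estimation, which bears on Ccl21a. Of 32052 gene identifiers 32001 were matched to GENCODE M21 symbols (GRCm38).

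Counts were fitted with edgeR 4.0.16 (quasi-likelihood, robust, TMM factors, filterByExpr with a minimum count of 10) in R 4.3.3, with 1 mean per group over all 12 libraries, and p-values were adjusted by Benjamini-Hochberg over 16757 genes. The SE is the fold change over the square root of F. The fit was tested on simulated data. Of 5 comparisons, 2 set GFP-positive against GFP-negative cells within a tissue, 1 took the colon effect minus the small intestine effect, and 2 set colon against small intestine within a sort. CPM use TMM factors. TPM were rescaled to protein-coding genes, which held 4.65% to 8.09% of deposited TPM, so the pseudocount of 1 weighs heavily on the deposited log2 scale. That scale was used without the rescaling, so differences in this share between libraries enter its fold changes. The share was higher in colon than in small intestine libraries of the same sort.

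The labels give all 4 groups replicate numbers 1 to 3. Deviations from group means of same-numbered small intestine sorts correlated at 0.323, 0.179 and 0.166, so these may be paired, judged from the data. The main fit does not use this pairing, and the blocked value is given where it changes a call. The colon sorts correlated at 0.00933, 0.0465 and 0.0903 and were not taken as paired, but the block covered them too. For comparisons between tissues the block matched colon and small intestine libraries by replicate number. The column names of replicate 3 share a number in both tissues, whose meaning is not stated, and the GFP-negative replicates 3 of the tissues correlated at 0.223, so the tissues may not be independent there.

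All 10 chemokines are named whether called or not. Of each list, up to 4 called genes with the smallest adjusted p per comparison are named, and for likeness the 2 nearest tested genes whose log2 CPM averaged 4 or more. Some genes that these rules pick are not reported here. The members and lists were chosen with earlier results of these data known, so their counts of calls beside the share of all genes are not a test of the lists. Alternatives were RLE factors, no filter, limma-voom (limma 3.58.1), DESeq2 1.42.0, the deposited log2 table, only the libraries compared, a replicate block, leaving out each library, and Ccl21a summed with its copies. Counting intervals are exact, at 95%.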

Additional observations from a re-analysis of the deposited data

Results flagged for a closer look

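The GFP effect of 2 genes differed between the tissues by the test of the difference itself. For Cxcl13 the colon effect minus the small intestine effect was -5.52 on the log2 scale, with all 3 colon GFP-positive libraries below and all 3 small intestine GFP-positive libraries above the GFP-negative libraries of their tissue. For Cxcl12 the difference was -2.06, with all 3 colon GFP-positive libraries below the colon GFP-negative libraries and overlapping groups in the small intestine. The Cxcl13 call held in all 12 fits that left out 1 library, and the Cxcl12 call in 3 of them. In edgeR the Cxcl12 call was also lost with the replicate number as a block (adjusted p = 0.0699). It was lost too without small intestine GFP-negative replicate 3 and colon GFP-positive replicate 3 (0.0832).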

How the results depend on the processing

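Over 753 recomputed values 639 kept their direction and side of the threshold, 60 fell short of it, 34 newly passed it and 20 changed sign. RLE factors changed no call. Of the 10 genes, with the fit limited to the libraries compared, 9 were called in the colon GFP comparison, 2 in the small intestine one, 5 between GFP-positive and 0 between GFP-negative tissues, from fits with fewer libraries. The deposited log2(TPM + 1) table gave 2 in the small intestine. For the difference of the GFP effects, no filter gave 4, DESeq2 4 and the replicate block 1. Leaving out 2 libraries, small intestine GFP-negative replicate 3 and colon GFP-positive replicate 3, gave 1. Between GFP-positive tissues DESeq2 gave 5, limma-voom 1 and leaving out those 2 libraries 1. Between GFP-negative tissues the replicate block gave 1 and leaving out those 2 libraries 0. The cause of these shifts was not tested. The share of all genes called in each of these settings is not given here. The counts above and below therefore do not set the 10 genes against other genes. Leaving out 1 library gave 4 to 5 calls in the colon, 2 to 5 in the small intestine, 1 to 3 in the difference, 1 between GFP-positive and 0 to 2 between GFP-negative tissues.

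Signs that changed belonged to genes not called. Leaving out 1 library moved Ccl7 between -0.833 and 1.07 and Cxcl12 between -0.16 and 0.62 in the small intestine, Ccl2 between -0.09 and 0.592 and Cxcl16 between -0.044 and 0.636 in the difference, and Ccl2 between -0.358 and 0.324 and Ccl21a between -0.098 and 1.769 between GFP-negative tissues. Without the 2 libraries Ccl7 was 1.07 and Cxcl12 -0.16 in the small intestine, Ccl2 -0.33, Ccl7 -0.233 and Cxcl16 -0.186 in the difference, and Ccl2 -0.006 between GFP-positive and 0.324 between GFP-negative tissues. The deposited table gave Ccl8 -0.929 in the difference and Ccl2 0.422 and Cxcl1 0.204 between GFP-negative tissues. The replicate block changed no colon GFP call of the 10 genes and, beyond the small intestine calls given in the report, ended those of Cxcl12 in the difference (-2.163, adjusted p = 0.0699 in edgeR) and of Ccl11 between GFP-negative tissues (-1.305, adjusted p = 0.0512), and Cxcl16 passed between GFP-positive tissues (-1.291, adjusted p = 0.0209). With 3 libraries a group, calls near the threshold rest on single libraries, and Ccl8 and Ccl19 rest on few counts.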
